A study of Mus musculus with 18 samples.

Results

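The 10 genes described here encode subunits and partners of the cohesin complex and of the chromosome axis of meiosis: Rec8, Smc1b, Smc1a, Smc3, Stag3, Rad21, Sgo2a, Sycp2, Sycp3 and Hormad1. They were chosen by symbol, and all 10 were found among the 53715 genes with counts and among the 28252 genes with TPM values (a level corrected for gene length and scaled to the same sum in every library). Bulk RNA sequencing had been carried out on 18 libraries of mouse oocytes, with 3 libraries in each of 6 groups. The stages were oocytes of primordial follicles, which rest, oocytes of primary follicles, which have begun to grow, and MII oocytes, arrested at the second meiotic division. Each stage had a sham and an NTY group. All libraries carry the strain label C57Bl/6j x CBA/J and the description in vivo, and no genotype, agent, dose or age is given here for any group. The labels do not spell out NTY, so it is used as a label alone, and they do not say that replicates came from separate animals, so p-values measure the spread between these libraries only.

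The oocytes of primordial and primary follicles were cut from sections by laser, RNA of several caps was pooled for each stage, and the cDNA was amplified and prepared with the TruSeq RNA Access kit, which captures coding sequence. MII oocytes were processed with Smart-seq II. Stage and library method therefore cannot be told apart in any comparison of MII with the other stages. Total counts were 15149564 to 29205503 in the 12 microdissected libraries and 8652089 to 9978830 in the 6 MII libraries, so that 3 counts, taken as the detection floor, equal 0.103 to 0.347 CPM (counts scaled to a common library total). Genes with at least 10 counts numbered 4244 to 10241 in microdissected and 10711 to 13191 in MII libraries. The summed level of 13 oocyte markers was 1.74 to 1447 CPM (median 423) in microdissected and 7482 to 10885 CPM (median 9599) in MII libraries, while 11 granulosa cell markers summed to 709 to 4713 and 90.1 to 178 CPM, and 7 stromal markers to 1376 to 17986 and 0 to 2.91 CPM. Markers of granulosa and stromal cells were thus present beside oocyte markers in the libraries labelled as oocytes of follicles. The granulosa markers did not all run the same way. Cyp19a1 and Esr2 had medians of 51.1 and 52.1 CPM in MII libraries, against 0 and 1.15 CPM in microdissected libraries. Foxl2, Amhr2 and Wt1 had 0 counts in all 6 MII libraries. At the low end of the oocyte sums, primordial NTY replicate 3 had 5 of the 13 oocyte markers at 0. Fewer oocytes and less RNA per oocyte cannot be told apart in such bulk libraries.

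Cohesin is a ring that holds sister chromatids together from DNA replication until division. Its body is formed by a pair of SMC proteins (Smc3 with Smc1a, or with the meiotic form Smc1b), closed by a kleisin (Rad21, or the meiotic Rec8) and bound by a Stag protein (Stag1, Stag2, or the meiotic Stag3). In the fetal ovary cohesin supports the axis on which homologous chromosomes pair, where Sycp2 and Sycp3 form the axial elements of the synaptonemal complex and Hormad1 marks axes that are not yet paired. Oocytes then rest in prophase for most of life, and the cohesin loaded before birth is known to hold chromosomes until ovulation, when shugoshin (Sgo2a) shields Rec8 at centromeres through the first division.

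Sgo2a, Sycp2, Sycp3 and Hormad1 were the members with higher levels in all sham MII libraries than in all sham libraries of primary follicles. The same held for 43.8% of the 15929 genes tested. The promoters of the members so chosen are shown as the bases that precede the annotated gene start. They were taken from RefSeq on GRCm38.p6 and are written 5′ to 3′ on the strand of the gene. Capitals mark CACGTG, an E-box bound by dimers with Max, and TCCCGC or its reverse complement GCGGGA, a core of E2F sites, searched on both strands. The marked motifs do not overlap each other.
Hormad1 (chr3:95559427-95559676, plus strand): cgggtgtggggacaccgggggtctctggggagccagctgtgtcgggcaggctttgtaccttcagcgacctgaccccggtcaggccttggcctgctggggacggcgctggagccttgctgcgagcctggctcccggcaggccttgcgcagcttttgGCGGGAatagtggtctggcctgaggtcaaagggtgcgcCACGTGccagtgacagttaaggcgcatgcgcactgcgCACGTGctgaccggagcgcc
Sycp3 (chr10:88459337-88459568, plus strand): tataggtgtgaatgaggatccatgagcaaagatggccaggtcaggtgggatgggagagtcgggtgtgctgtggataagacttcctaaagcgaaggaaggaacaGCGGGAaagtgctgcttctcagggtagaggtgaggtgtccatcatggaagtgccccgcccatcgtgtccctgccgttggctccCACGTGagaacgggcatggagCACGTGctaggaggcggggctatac
Sgo2a (chr1:57995724-57995970, plus strand): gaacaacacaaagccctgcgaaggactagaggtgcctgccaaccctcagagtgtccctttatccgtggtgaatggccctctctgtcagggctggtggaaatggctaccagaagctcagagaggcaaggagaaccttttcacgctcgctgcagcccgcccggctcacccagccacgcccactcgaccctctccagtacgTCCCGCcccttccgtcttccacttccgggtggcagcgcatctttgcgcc
Sycp2 (chr2:178407686-178407908, minus strand): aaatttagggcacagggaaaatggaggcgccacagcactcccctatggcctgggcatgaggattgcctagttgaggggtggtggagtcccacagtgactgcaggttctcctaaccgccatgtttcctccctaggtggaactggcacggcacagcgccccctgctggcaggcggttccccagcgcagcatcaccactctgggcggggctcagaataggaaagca
The Hormad1 and Sycp3 windows each held 2 copies of CACGTG and 1 copy of the E2F core. The Sgo2a window held 1 E2F core, and neither motif was in the letters of the Sycp2 window. A promoter entry was matched for 9 of the 10 genes, all but Rad21, and windows of 121 to 250 bases were searched in 8 of them, Stag3 being left out because its RefSeq start lay inside an annotated transcript. CACGTG was in 2 of these 8 windows and in 6.02% of 32851 promoters in windows of 250 bases, and the E2F core was in 5 of 8 (Smc1b, Smc3, Sgo2a, Sycp3 and Hormad1) and in 16.9% of promoters. These are matches of letters, and no binding was measured.

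The core ring subunits Smc3 and Smc1a, which serve both mitotic and meiotic cohesin, had at least 10 counts in all 18 libraries. In primordial follicles Smc3 read 67.0, 55.6 and 154 TPM in sham and 33.2, 170 and 564 TPM in NTY libraries. In primary follicles it read 152, 180 and 258 TPM in sham and 174, 4.19 and 74.3 TPM in NTY libraries. The lowest Smc3 level of the series was thus in primary NTY replicate 2, and the highest in primordial NTY replicate 3. MII oocytes held 165, 167 and 325 TPM of Smc3 in sham and 147, 301 and 254 TPM in NTY libraries, a narrower range that lay inside that of the microdissected libraries.

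Smc1a read 1324, 122 and 288 TPM in primordial sham, 286, 192 and 211 TPM in primordial NTY, 198, 51.8 and 212 TPM in primary sham and 39.8, 625 and 250 TPM in primary NTY libraries. Primordial sham replicate 1 stood highest. In MII oocytes Smc1a was at 11.1, 51.1 and 40.1 TPM in sham and 36.0, 78.9 and 47.8 TPM in NTY libraries.

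Smc1b, the meiotic partner of Smc3, was the most variable of the abundant members in the follicle stages. The sham libraries of primordial follicles read 495, 0.638 and 83.5 TPM, and the NTY libraries 0.0369, 6.86 and 0.501 TPM. In primary follicles it read 34.8, 14.1 and 29.5 TPM in sham and 0.0622, 104 and 127 TPM in NTY libraries. Within both stages sham and NTY libraries overlapped. Primordial NTY replicate 1, with 1 count, and primary NTY replicate 1, with 2 counts, were below the floor of 3 counts. MII oocytes were much closer to each other, with 5.44, 21.8 and 23.0 TPM in sham and 11.5, 15.1 and 17.6 TPM in NTY libraries. Of all 22662 counts of Smc1b, 41.7% came from primordial sham replicate 1.

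Rad21, the kleisin of mitotic cohesin that is also used in meiosis, had 5, 2 and 4 counts in primordial sham libraries (0.250, 0.0555 and 0.147 TPM) and 622, 1908 and 21 counts in primordial NTY libraries (21.9, 63.5 and 0.629 TPM). In primary follicles it read 172, 190 and 27.6 TPM in sham and 3.27, 7.93 and 50.6 TPM in NTY libraries. MII oocytes had 43.3, 66.8 and 84.5 TPM in sham and 40.0, 69.2 and 43.3 TPM in NTY libraries. The primordial sham group therefore stood apart as the group with Rad21 at or near the floor.

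Rec8, the kleisin particular to meiosis, was close to absent from the counts. All 6 MII libraries and all 3 primordial sham libraries had 0 counts. The primordial NTY libraries had 0, 10 and 1 counts, the primary sham libraries 0, 31 and 9 counts, and the primary NTY libraries 349, 0 and 0 counts. Of the 400 counts in the whole series, 87.2% lay in primary NTY replicate 1, at 15.0 TPM. A count of 0 in the MII libraries allows up to 0.301 to 0.347 CPM (3 counts), counting error only.

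Stag3, the meiotic Stag subunit, had 0, 91 and 5 counts in primordial sham, 0, 0 and 0 in primordial NTY, 22, 0 and 12 in primary sham and 0, 268 and 647 in primary NTY libraries, the last pair at 6.54 and 14.1 TPM. MII libraries had 0, 11 and 0 counts in sham and 0, 1 and 3 in NTY. The library codes of primary NTY replicates 2 and 3, which held the highest Stag3 counts, differ only by an added digit, and whether these libraries share material was not tested.

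Sgo2a, the shugoshin that protects centromeric cohesin, had 0 to 30 counts in every microdissected library, or at most 0.534 TPM. In MII oocytes it had 591, 1415 and 1178 counts in sham (20.0, 57.3 and 51.6 TPM) and 707, 1062 and 1732 counts in NTY libraries (29.5, 43.6 and 72.8 TPM). The ranges were far apart. Sycp3, a protein of the lateral elements, had 0 to 24 counts in microdissected libraries, at most 2.23 TPM, and 93.8, 167 and 278 TPM in sham and 152, 254 and 47.6 TPM in NTY MII libraries. Its partner Sycp2 had at most 9 counts in 10 of the 12 microdissected libraries, and 491 counts (12.8 TPM) in primordial sham replicate 3 and 144 counts (3.49 TPM) in primary sham replicate 1. Its MII levels were 26.7, 50.2 and 53.0 TPM in sham and 36.0, 53.7 and 37.1 TPM in NTY libraries. Hormad1 had 0 counts in all 12 microdissected libraries, 3, 31 and 6 counts in MII sham and 0, 0 and 120 counts in MII NTY libraries, the last at 20.5 TPM.

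**Figure D1:**
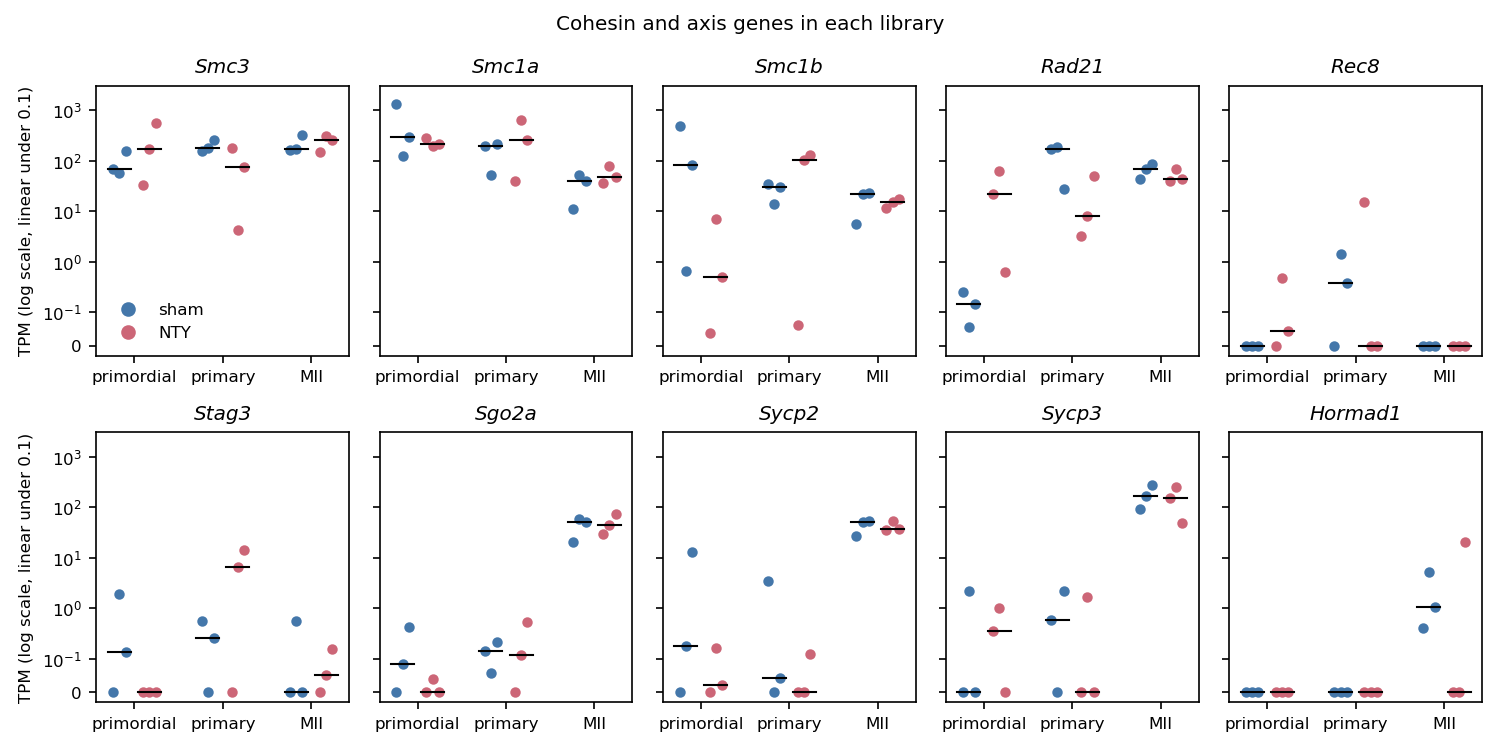
Level of each gene in every library, as TPM on a log axis that is linear under 0.1, by stage (horizontal axis) and treatment (colour). Each point is 1 library and each black line the median of 3 libraries. Sgo2a and Sycp3 sit at or under 2.23 TPM in the 12 microdissected libraries and between 20.0 and 278 TPM in the 6 MII libraries, while Rec8 is at 0 in all MII libraries.

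The order of levels differed between the library kinds. Over the 12 microdissected libraries the medians ran from Smc1a (211 TPM) through Smc3 (153 TPM), Smc1b (21.8 TPM) and Rad21 (14.9 TPM) to Sycp3 (0.177 TPM) and the other 5 genes below it. Neighbours in this order were not separated: Smc1a exceeded Smc3 in 8 of 12 libraries, Smc3 exceeded Smc1b in 9 and Smc1b exceeded Rad21 in 6. Rad21 exceeded Sycp3 in 11 of 12. In MII oocytes the order by median was Smc3 (210 TPM), Sycp3 (159 TPM), Rad21 (55.1 TPM), Sgo2a (47.6 TPM), Smc1a (43.9 TPM), Sycp2 (43.6 TPM), Smc1b (16.4 TPM), Hormad1 (0.737 TPM), Stag3 (0.0251 TPM) and Rec8 (0 TPM). Sycp3 exceeded Rad21 and Sycp2 exceeded Smc1b in 6 of 6 MII libraries, and Smc3 exceeded Sycp3 in 4 of 6. Rad21, Sgo2a, Smc1a and Sycp2 followed each other closely, each above the next in 5, 4 and 3 of 6 libraries.

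The 5 genes whose levels followed Smc1b most closely over the 18 libraries, among 9794 genes compared by the Pearson correlation of log2(TPM + 1), were 8030462N17Rik (0.813), Prpf38b (0.811), Aimp2 (0.794), Eml4 (0.782) and Pdpk1 (0.777). The points share the libraries and their depth, and the values are a description.

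Each meiotic subunit was next read as a share of the paralogs that fill the same place in the ring. A share within a library does not depend on its depth. Smc1b made up 27.2, 0.521 and 22.5% of Smc1a and Smc1b TPM in sham and 0.0129, 3.45 and 0.237% in NTY libraries of primordial follicles, and 15.0, 21.4 and 12.2% in primary sham and 0.156, 14.2 and 33.7% in primary NTY libraries. In MII oocytes the share was 32.9, 29.9 and 36.5% in sham and 24.2, 16.04 and 27.0% in NTY libraries. The lowest MII share was thus above 8 of the 12 microdissected ones. The mean was 27.8% ± 7.19 (SD, n = 6) in MII and 12.5% ± 11.8 (SD, n = 12) in microdissected libraries, a difference of 15.2 percentage points (exact two-sided permutation test, p = 0.0130, adjusted p = 0.195 over 15 share tests). This difference did not pass the threshold of 0.05 after adjustment.

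The Smc1b share of primary follicles, 16.1% ± 11.1 (SD, n = 6), and of primordial follicles, 8.98% ± 12.4 (SD, n = 6), did not differ beyond their spread (exact permutation test, p = 0.333, adjusted p = 0.710). MII was the only stage where the sham and NTY shares did not overlap, at 33.1% ± 3.30 in sham and 22.4% ± 5.68 in NTY libraries (SD, n = 3 each). With 3 libraries against 3 the exact permutation test cannot go below p = 0.1, the value it gave here, and the adjusted p was 0.710. Neither Smc1b nor Smc1a passed the test of its own level in that comparison, as given below.

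Rec8 made up 0% of the Rec8 and Rad21 TPM in all MII libraries and 0 to 6.43% in 11 of the 12 microdissected libraries. The exception was primary NTY replicate 1, with 82.1%, where Rad21 was at 3.27 TPM. Most of these shares rest on counts near the floor: the 6.43%, in primordial NTY replicate 3, is 1 count of Rec8 beside 21 of Rad21, and the 0% of the primordial sham libraries stands on 2 to 5 counts of Rad21. With a pseudocount of 1 TPM the difference of NTY and sham in primordial follicles turned from 2.39 to -31.4 percentage points, so no order of the groups was read from it. Stag3 made up 0 to 2.11% of the Stag1, Stag2 and Stag3 TPM in 17 of 18 libraries and 14.9% in primary NTY replicate 3. Adjusted p-values of the 10 tests of these shares were 0.710 to 1 by exact permutation.

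**Figure D2:**
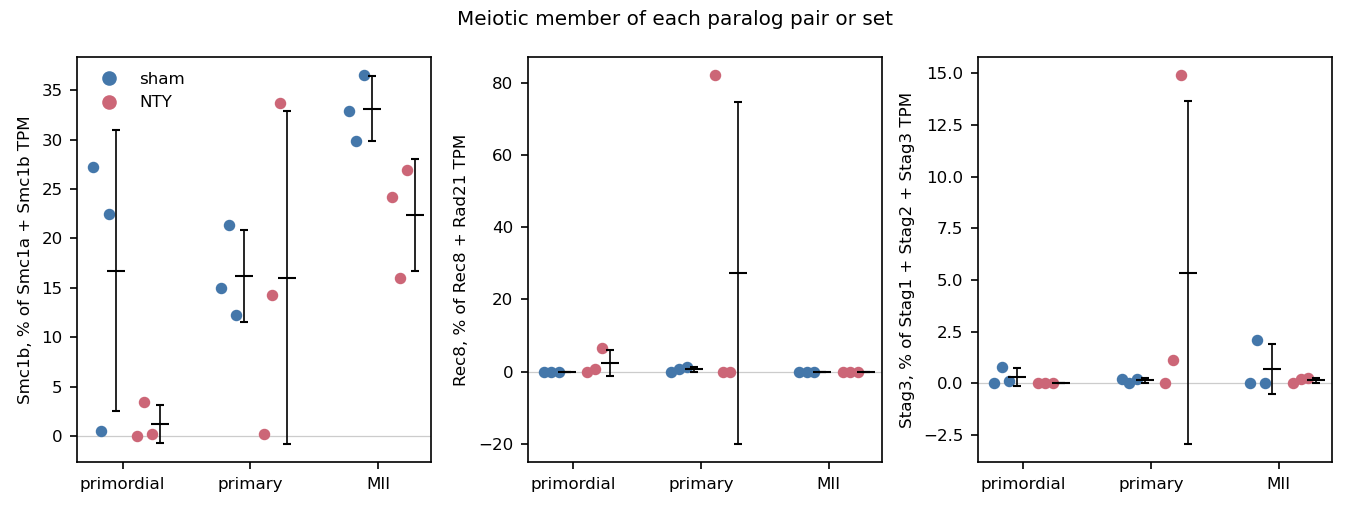
Share of the meiotic member of each paralog pair or set, in percent of summed TPM (vertical axes, each with its own range), by stage and treatment. Points are libraries, and black bars give mean ± SD of 3 libraries, some of which extend below 0 where no share can lie. The sham MII libraries are at 29.9 to 36.5% for Smc1b, Rec8 is at 0% in MII, and the high Rec8 and Stag3 values are single libraries.

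Whether NTY altered these genes was asked within each stage. The edgeR quasi-likelihood test called 0 members in primordial follicles (7 of 10 passed the filter on low counts, 3 of them at an unadjusted p under 0.05), where 0.00950% of 10522 genes were called. It called 0 in primary follicles (7 tested, 0 at an unadjusted p under 0.05), with 0.00% of all genes called, and 0 in MII oocytes (7 tested, 0 at an unadjusted p under 0.05), with 0.00% of 12209 genes called. Over all genes 1145, 858 and 280 had an unadjusted p under 0.05 in these comparisons. DESeq2 called 2 members in primordial follicles, Rad21 and Smc1b, and 0 in the other stages. Over all genes with an adjusted p it called 703 of 8266, 435 of 8488 and 89 of 14244.

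Rad21 was the member with separate groups in primordial follicles, higher in 3 of 3 NTY libraries than in the 3 sham libraries. The log2 fold change was 7.35 (SE 3.34) with an adjusted p of 0.424 in edgeR, so the difference was not called, and with DESeq2 the adjusted p was 0.0015. Separate groups were found for 7.96% of the genes tested there, and with NTY higher for 5.19%. Over its alternatives the adjusted p of Rad21 ran from 0.0015 to 1.00. The summed levels of the oocyte and of the granulosa markers varied between these libraries and overlapped between sham and NTY. The 13 oocyte markers summed to 225, 1447 and 416 CPM in sham (4, 0 and 0 of them at 0) and to 60.1, 469 and 1.74 CPM in NTY libraries (2, 1 and 5 at 0). The 11 granulosa markers summed to 767, 709 and 3308 CPM in sham and 1810, 4713 and 3994 CPM in NTY libraries. The part of these markers in the Rad21 values was not tested.

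In MII oocytes, where the spread between replicates was smallest (common dispersion 0.542, against 3.59 in the 12 microdissected libraries), the 7 tested members had a median log2 fold change of 0.02 for NTY against sham, beside 0.0038 over all genes. No member had separate groups, against 8.31% of genes. Smc1b had 93, 311 and 304 counts in sham and 159, 212 and 242 in NTY libraries, and Smc1a had 270, 1039 and 754 counts in sham and 709, 1582 and 935 in NTY libraries, so both overlapped. In primary follicles no member had separate groups, against 15.1% of genes.

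The step from primordial to primary follicles was compared in each treatment. In edgeR 0 of 7 tested members were called in sham (1 at an unadjusted p under 0.05, with 0.00950% of genes called) and 0 of 7 in NTY libraries (1 at an unadjusted p under 0.05, with 0.00% of genes called), where over all genes 976 and 1049 had an unadjusted p under 0.05. DESeq2 called 1 member in each, Rad21 in sham and Stag3 in NTY, beside 466 of 8266 and 634 of 8266 genes with an adjusted p. Rad21 was higher in 3 of 3 primary than in the 3 primordial sham libraries, 939 to 6082 against 2 to 5 counts, with a log2 fold change of 9.56 (SE 3.66) and an adjusted p of 0.473 in edgeR. Of all genes 15.6% had separate groups in that comparison, most of them (14.5%) higher in primary follicles. The primordial sham libraries serve in this comparison and in that of NTY with sham, so the Rad21 values of both rest on the same 3 low libraries. In NTY no tested member had separate groups between the follicle stages, against 7.12% of genes.

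The NTY effect itself was compared between the follicle stages as an interaction. edgeR called 0 of 7 members (3 at an unadjusted p under 0.05, with 0.00950% of genes called and 1246 at an unadjusted p under 0.05). DESeq2 called 3, Stag3, Rad21 and Smc1b, beside 684 of 8735 genes with an adjusted p.

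MII oocytes were set against oocytes of primary follicles in each treatment, in a fit of all 18 libraries with 9 of the 10 members, Rec8 being filtered out. Of these 9, Sycp2 and Hormad1 had failed the filter on low counts among the 12 microdissected libraries and entered through the MII libraries, where they are high, so their direction was fixed by the filter and their values are a description. Sgo2a was called higher in MII in both treatments, with a log2 fold change of 7.98 (SE 2.42, adjusted p = 0.0292 in edgeR) in sham and 7.01 (SE 2.32, adjusted p = 0.0337 in edgeR) in NTY libraries. Of the other 6 members that passed both filters, Smc1a was called lower in NTY, with a log2 fold change of -3.52 (SE 1.20, adjusted p = 0.0370 in edgeR), although the groups overlapped. Over all 15929 genes 23.0% were called in sham (17.5% higher) and 30.6% in NTY (22.1% higher and 8.50% lower), and the calls among the members are too few to set against these shares. The shares fell whichever of the 6 libraries compared was left out, to 0.575 to 1.17% in sham and 2.48 to 16.2% in NTY. Genes at an unadjusted p under 0.05 in edgeR went from 6508 to 5379 to 5727 in sham. In NTY they went from 7767 to 6746 to 7108. The cause of the fall in calls was not tested.

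Separate groups with MII higher were seen in sham for Sgo2a, Sycp2, Sycp3 and Hormad1, against 43.8% of genes, and in NTY for Sgo2a, Sycp2 and Sycp3, against 36.8%. In edgeR the log2 fold change of Sycp3 was 7.37 (SE 2.85, adjusted p = 0.0651) in sham and 6.90 (SE 2.79, adjusted p = 0.0643) in NTY. That of Sycp2 in edgeR, given as a description, was 5.15 (SE 2.70) in sham and 9.11 (SE 3.23) in NTY, where primary libraries had 0, 0 and 6 counts. Sycp2 in sham rested on its 144 counts in primary sham replicate 1, without which its log2 fold change was 10.46. Hormad1, with 0 counts in all primary libraries, was at least 10.3-fold higher in MII sham by mean CPM over the floor of 3 counts in a library. This bound rested on MII sham replicate 2, with 31 of the 40 counts, and was at least 3.71-fold without it. Against all 12 microdissected libraries together, Sgo2a, Sycp2 and Sycp3 were higher in 6 of 6 MII libraries, as were 23.9% of genes.

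**Figure D3:**
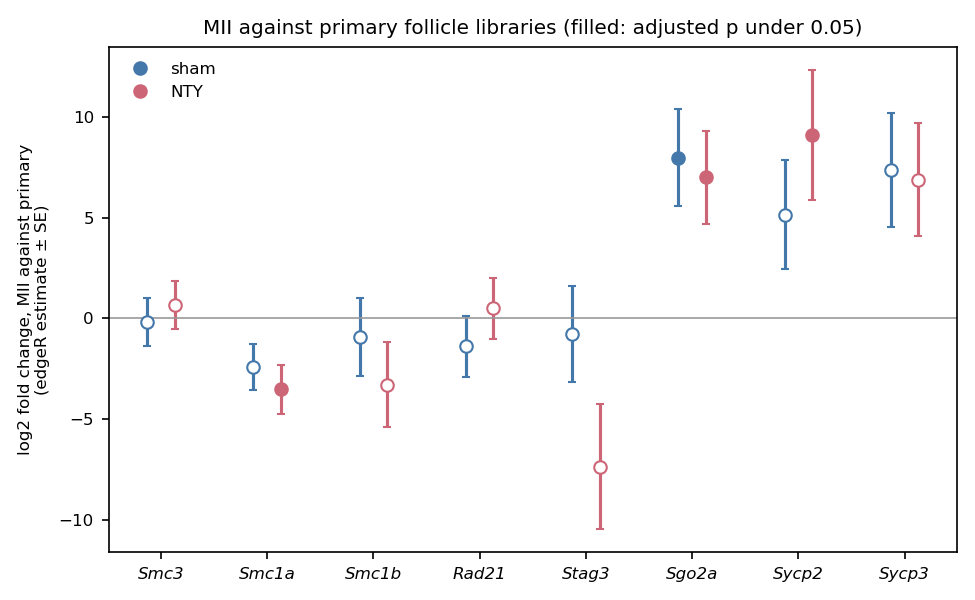
edgeR log2 fold change of MII oocytes against oocytes of primary follicles (vertical axis, ± SE) for 8 genes, in sham and NTY libraries, 3 per group. Filled points have an adjusted p under 0.05. The direction of Sycp2 was fixed by the filter on low counts, so its points are a description, filled or not. Rec8 (not tested) and Hormad1 (0 counts in primary follicles) are left out. Sgo2a, Sycp2 and Sycp3 lie between 5.15 and 9.11, and Smc1a, Smc1b and Stag3 lie below 0 in both treatments.

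These calls did not hold when 1 library was left out. Leaving out any of the 6 libraries of the sham comparison took the adjusted p of Sgo2a in edgeR to 0.0631 to 0.102, with log2 fold changes of 7.76 to 8.42. In NTY the corresponding range of Sgo2a was 0.0548 to 0.0894, and Smc1a was no longer under 0.05 whichever of the 6 libraries was left out. Without primary NTY replicate 2 Sycp3 was called (log2 fold change 12.58, adjusted p = 0.0488 in edgeR) and the Smc1a log2 fold change was -2.17. The Smc1a call was lost in all 7 other alternatives run for it (adjusted p 0.0587 to 0.198). Sgo2a was past the threshold in 5 of its 7 other alternatives in sham and in 5 of 7 in NTY. Sycp3 was past it in 4 of 7 in sham and 3 of 7 in NTY. The scaling also mattered. Over all genes the median log2 fold change of MII against primary was 0.84 in sham and 1.51 in NTY with TMM scaling, and 2.46 and 2.93 with RLE scaling. TMM gave 2789 genes higher and 871 lower in sham and 3528 higher and 1354 lower in NTY, and RLE gave 4260 and 540 in sham and 5087 and 1006 in NTY. With RLE Sgo2a was at 9.58 in sham and 8.52 in NTY, and Smc1a in NTY at -2.40 with an adjusted p of 0.153 in edgeR.

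Sgo2a and Sycp3 each share exon bases with a gene on the opposite strand, and whether counting used strand is not given in the sources used here. Sgo2a (chr1:57995971-58025899, GRCm38) shares 35.0% of its 7007 exon bases with Kctd18, and Sycp3 (chr10:88459569-88473236, GRCm38) 52.2% of its 1264 with Chpt1. In MII oocytes Kctd18 had 751, 1121 and 1021 counts in sham and 535, 1017 and 1408 in NTY libraries, beside 591, 1415, 1178, 707, 1062 and 1732 of Sgo2a. Chpt1 had 347, 451 and 755 counts in sham and 389, 870 and 164 in NTY libraries, beside 501, 744, 1145, 656, 1115 and 204 of Sycp3. Both pairs thus moved together across the MII libraries, and reads of the shared bases cannot be told apart there. In the microdissected libraries, made by another method, the pairs were apart where the partner was highest, with 3064 counts of Kctd18 beside 5 of Sgo2a in primordial sham replicate 2 and 2191 of Chpt1 beside 5 of Sycp3 in primary sham replicate 1. The exons of the other 8 genes shared no bases with another annotated gene.

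The wider lists are given against the shares of all genes in the comparison of MII with primary follicles, 17.5% called higher and 5.47% lower in sham and 22.1% higher and 8.50% lower in NTY. Genes that failed the filter among the microdissected libraries and passed it with MII entered through the MII libraries, and their values are a description. The regulators of cohesin were read from a list of 9 genes, 8 of which passed both filters. The exception was Cdca5 (sororin, which stabilises cohesin on DNA). Cdca5 had 0 to 1.40 TPM in microdissected and 371 to 776 TPM in MII libraries. It passed the filter only with MII, so its edgeR log2 fold change of 9.54 (SE 2.19) in sham is a description. Pds5a, a scaffold for loading and release factors, was called lower in both. It had a median of 44.7 TPM in microdissected and 1.40 TPM in MII libraries, with a log2 fold change of -5.25 (SE 1.38, adjusted p = 0.0184 in edgeR) in sham. In NTY the acetyltransferase gene Esco2 and the deacetylase gene Hdac8 were also called higher. Esco2 had 0 to 44.0 TPM in microdissected and 89.4 to 273 TPM in MII libraries. Hdac8 had 0 to 83.7 TPM in microdissected and 10.2 to 27.5 TPM in MII libraries, so its ranges overlapped. Of the 8 genes that passed both filters, 0 were called higher and 1 lower in sham, and 2 higher and 1 lower in NTY. Wapl, the release factor, had medians of 164 TPM in microdissected and 187 TPM in MII libraries, and Nipbl, the loader, 170 and 60.8 TPM.

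Of 8 genes of protection and cleavage 7 were tested, and 6 passed both filters. Of these 6, Pttg1 (securin, the inhibitor of separase) was called higher in MII in both treatments, and Ppp2ca, a catalytic subunit of the phosphatase PP2A, was called lower in NTY. With 1 of 6 higher in each treatment and 1 of 6 lower in NTY, the list was near the shares of all genes. Sgo1 passed only with the MII libraries, where its median was 56.9 TPM, against 0 TPM in the microdissected libraries. Pttg1 had the highest MII level among the 10 genes and the 5 wider lists, with 1472 to 4208 TPM in MII and 0 to 5.11 TPM in microdissected libraries (log2 fold change 9.86, SE 2.46, adjusted p = 0.0184 in sham by edgeR). Separase itself, Espl1, had medians of 6.73 TPM in microdissected and 41.0 TPM in MII libraries and was not called. Of the other cohesin subunits, Stag2 was called lower in both treatments (log2 fold change -4.57, SE 1.55, adjusted p = 0.0425 in sham by edgeR), with medians of 118 and 13.2 TPM. Stag1 was not called, nor was Rad21l, which passed the filter only with MII.

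Of 12 genes of the chromosome axis and the synaptonemal complex 9 were tested, but 7 of these (Sycp1, Tex12, Hormad2, Ccdc36, Rec114, Mei4 and Ankrd31) passed the filter only with the MII libraries, so the direction of their calls was fixed by the filter. Syce2 and Trip13 passed both filters, and Syce2 was called higher in both treatments. Syce2, a central element protein, had 0 to 4.36 TPM in microdissected and 248 to 756 TPM in MII libraries, with a log2 fold change of 9.18 (SE 2.29, adjusted p = 0.0184 in sham by edgeR). Mei4, Rec114 and Ccdc36, partners in forming the breaks that start recombination, had MII medians of 10.01, 9.91 and 8.79 TPM and medians of 0 TPM in the microdissected libraries. Sycp1, of the transverse filaments, and Tex12, of the central element, had MII medians of 21.5 and 77.7 TPM, also beside 0 TPM. Of 9 recombination genes 6 were tested and only Msh4 and Mlh3 passed both filters, neither of them called by edgeR in either treatment (Msh4 at an adjusted p of 0.0555 in NTY). Tex11, with medians of 0 TPM in microdissected and 31.3 TPM in MII libraries, passed only with MII, as did Msh5, Hfm1 and Rnf212. Msh5 and Hfm1 had their highest counts in microdissected libraries, 1794 and 2822, against at most 56 and 88 in MII. In the NTY comparisons and between the follicle stages, edgeR called 0 of the 20 tested genes of these 5 lists (31 in MII), with 0 to 2 of them at an unadjusted p under 0.05 in each comparison. DESeq2 called 1 of 27, Hdac8, for NTY against sham in primordial and in primary follicles, beside 703 of 8266 and 435 of 8488 genes. As with the members, MII differs from the other libraries in method. Of the 13 oocyte markers, which all passed both filters, edgeR called 3 higher and 0 lower in sham and 2 higher and 1 lower (Sohlh1) in NTY, with medians of the log2 fold change of 1.72 and 1.48, beside 0.84 and 1.51 over all genes.

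**Figure D4:**
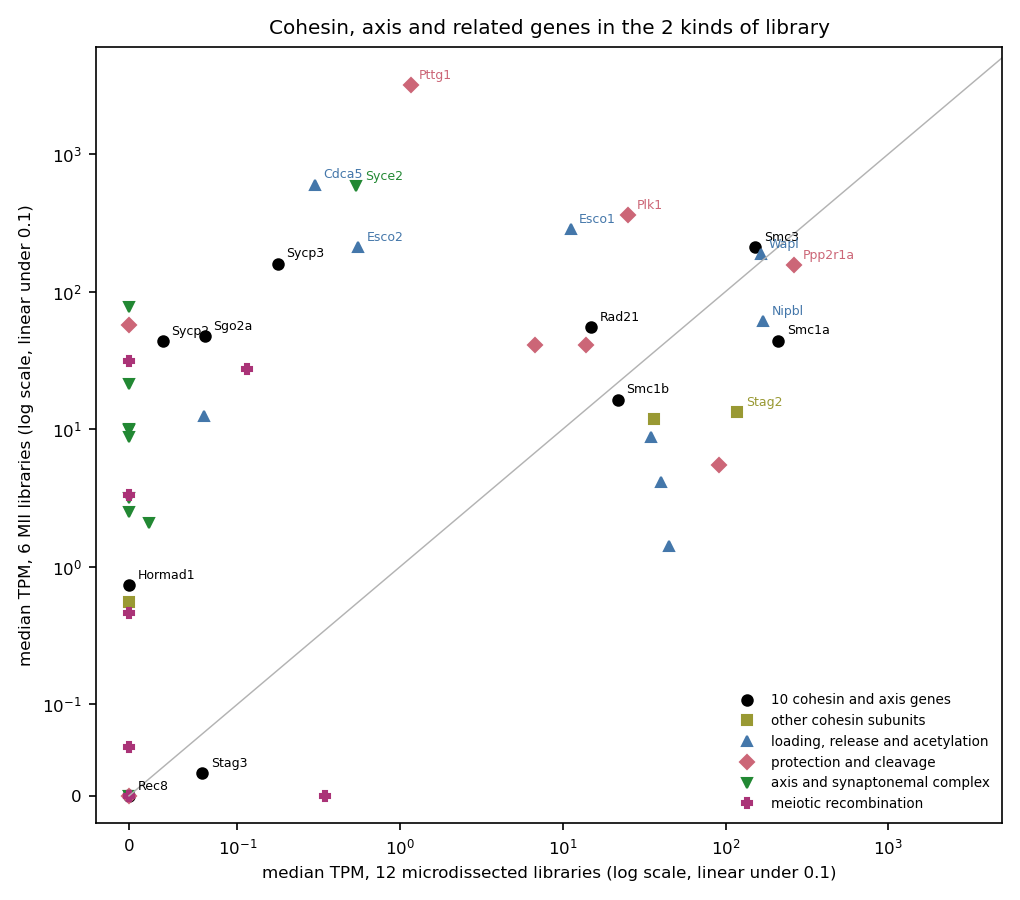
Median TPM of the 10 genes and of the 5 wider lists in the 12 microdissected libraries (horizontal) and the 6 MII libraries (vertical), on log axes that are linear under 0.1. The grey line marks equal medians, and names are given for the 10 genes and for others above 100 TPM. Pttg1, Cdca5 and Syce2 stand far above the line, and Stag2 and Smc1a below it.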

How the data were processed

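Gene expression was measured in 18 mouse oocyte libraries. The authors deposited whole-number counts per gene for 53715 genes and TPM values for 28252 of them. Trim Galore 0.4.1, TopHat2, featureCounts and the build mm10 are named in the submitters' processing notes, and the strand setting is not given in the sources used here. TPM columns sum to 1000000. Coordinates are from GENCODE M21 on GRCm38.

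The counts were tested in edgeR 4.0.16 (R 4.3.3; quasi-likelihood, robust, TMM, filterByExpr), with Benjamini-Hochberg adjustment over all genes tested and a threshold of 0.05. The 12 microdissected libraries shared one fit, the 6 MII libraries another, and MII against primary used all 18. Shares of TPM were tested by exact two-sided permutation over libraries (numpy 2.4.6), adjusted over 15 tests. The scripts were tested on simulated data. The alternatives were RLE scaling, a filter on any count, a replicate block, DESeq2 1.42.0, limma 3.58.1 on log2(TPM + 1), only the groups compared, primary NTY replicates 2 and 3 summed, leaving out each library and, for shares, CPM, a pseudocount of 1 TPM and sham libraries alone. All 10 members are named, with a log2 fold change where the adjusted p was under 0.05 or the groups did not overlap. List genes are a selection, and not every list gene that met this rule is named or given with a fold change. The members and lists were chosen with earlier results of these data known.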

Additional observations from a re-analysis of the deposited data

How the results depend on the processing

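The floor of 3 counts is 0.103 to 0.347 CPM, which covers counting error only. No member was called between the microdissected groups in edgeR, and the part of depth and of the spread between replicates in this was not tested. The replicate numbers did not pair the libraries (correlations of deviations -0.0623 to 0.0657), and the replicate block changed the number of members called from 1 to 0 for MII against primary in sham and from 3 (Sycp2 included) to 1 in NTY, and in no other comparison. With the block 1714 of 15929 genes were called in sham and 2770 of 15929 in NTY. The cause of the changes below was not tested. DESeq2 called 2 members for NTY against sham in primordial follicles, 1 for primary against primordial follicles in sham and 1 in NTY, 3 for the difference of the NTY effect and 4 for MII against primary in sham. Over all genes it called 703 of 8266, 466 of 8266, 634 of 8266, 684 of 8735 and 5886 of 14915 in these comparisons. For MII against primary in sham RLE scaling called 2 members (beside 4800 of 15929 genes) and a filter on any count 0 (1720 of 25283). There limma on log2(TPM + 1) called 3 (6329 of 14965) and only the groups compared 3 (6750 of 13139). Sycp2 was past the threshold in 2 of its 7 alternatives there and Hormad1 in 1 of its 6, and both are a description. For MII against primary in NTY a filter on any count called 0 (beside 3323 of 25283 genes) and summing primary NTY replicates 2 and 3 called 0 (2571 of 17299). Leaving out each library called 0 to 0 members for MII against primary in sham and 0 to 1 in NTY.

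Differences of paralog shares, in percentage points and none past the threshold, changed sign in these cases. For Smc1b, NTY minus sham in primary follicles was -0.17, and 0.292 with CPM and 0.196 with a pseudocount of 1 TPM, and -9.002 to 7.76 leaving out each library, and primary minus primordial was -0.529 in sham libraries alone. For Rec8 with a pseudocount of 1 TPM, primary minus primordial was -14.6 and NTY minus sham in primordial follicles -31.4. Leaving out each library gave -0.777 to 15.6 for primary minus primordial and -0.698 to 40.3 for NTY minus sham in primary follicles, the low values without primary NTY replicate 1. For Stag3, MII minus microdissected was 1.32 with the pseudocount, 0.483 in sham libraries alone and -1.36 to 0.199 leaving out each library, NTY minus sham in primordial follicles was 1.67 with the pseudocount, primary minus primordial was -0.157 in sham libraries alone, and NTY minus sham in MII was -0.910 to 0.142 leaving out each library.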
